A study of Mus musculus with 8 samples.

Results

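The 10 genes described here, Hr, Klf9, Dbp, Stat5a, Me1, Thrsp, Gbp3, Nrgn, Flywch2 and Itih3, are known to respond to thyroid hormone in one tissue or another. All 10 were found by symbol among the 47517 symbols of the count files, and all 10 passed the expression filter that left 21392 genes to test. They are known hormone-responsive genes, and the set was also chosen by measured values, the difference between genotypes that some of them had shown in these same libraries. Their genotype differences are therefore given as a description, with no p-value for a single gene.

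At postnatal day 14 RNA was taken from whole inner ears of mice, with 4 libraries from wild-type mice and 4 from littermates heterozygous for a frameshift that alters TRα1, the thyroid hormone receptor isoform made from Thra. The animals were not treated, and the groups share their age and tissue. The labels do not say whether a library is 1 animal or a pool, and they name neither the exact allele nor the strain. The mutation is described with no tissue restriction, so the hormone axis outside the ear cannot be told apart from the ear itself. Counts per gene do not show a frameshift, so Thra gives no check of the genotype labels.

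Libraries held 18930841 to 23064578 counts, and all values below are CPM, counts scaled to the normalized library size. A floor of 3 counts corresponded to 0.132 to 0.159 CPM and covers counting error only. All 10 inner ear markers (among them Coch, Otos, Myo7a and Otof) passed the filter in these libraries. Titles of replicates 1 and 4 carry 1 number in both genotypes and titles of replicates 2 and 3 carry 2, which was treated as a possible batch. Markers of airway and middle ear mucosa (8 of 8 tested) summed to between 188 and 634 CPM per wild-type library, and to between 3.95 and 6.21 CPM per mutant library, with Krt4, Krt5 and Krt15 near 0 in the mutants. Choroid plexus markers (7 of 7 tested) summed to 2119.9 CPM in mutant replicate 4 and to at most 71.4 CPM elsewhere. In a bulk sample fewer cells of a type and less RNA per cell cannot be told apart.

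Thyroid hormone receptors sit on DNA with or without their ligand, and a typical target gene is repressed by the empty receptor and activated once hormone binds. In the ear the hormone times the maturation of the cochlea before hearing begins. Receptors bind best to a pair of AGGTCA half-sites spaced by 4 bases, the arrangement called DR4. Receptor α1 mutations that impair hormone binding are known to act against the normal receptors in the same cell.

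The broad picture was one of unequal differences, small for some of the genes and wide for Hr and Itih3. Mean levels in mutant libraries were 53.4% of wild-type for Hr, 63.7% for Gbp3, 67.0% for Nrgn, 72.0% for Flywch2, 80.6% for Dbp, 85.1% for Klf9 and 89.0% for Stat5a. Means were higher for Thrsp (114%), Me1 (117%) and Itih3 (268%). Hr, Dbp, Gbp3 and Flywch2 were lower in every mutant library than in every wild-type library, Itih3 was higher in every one, and the remaining 5 genes overlapped. Groups without overlap occurred in 2.69% of all tested genes, with the mutants lower in 1.41% and higher in 1.28%. At an adjusted p under 0.05 in edgeR 0 of the 10 genes were called, against 0.0421% of all tested genes. In DESeq2 the count was also 0 (0.318% of all genes). An unadjusted p under 0.05 was found for 6 of the 10 in edgeR, against 5.30% of all genes, and nothing is read from that count because the genes were chosen with this contrast in view. The median log2 difference of the 10 genes was -0.27, beside -0.0061 over all tested genes.

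**Figure D1:**
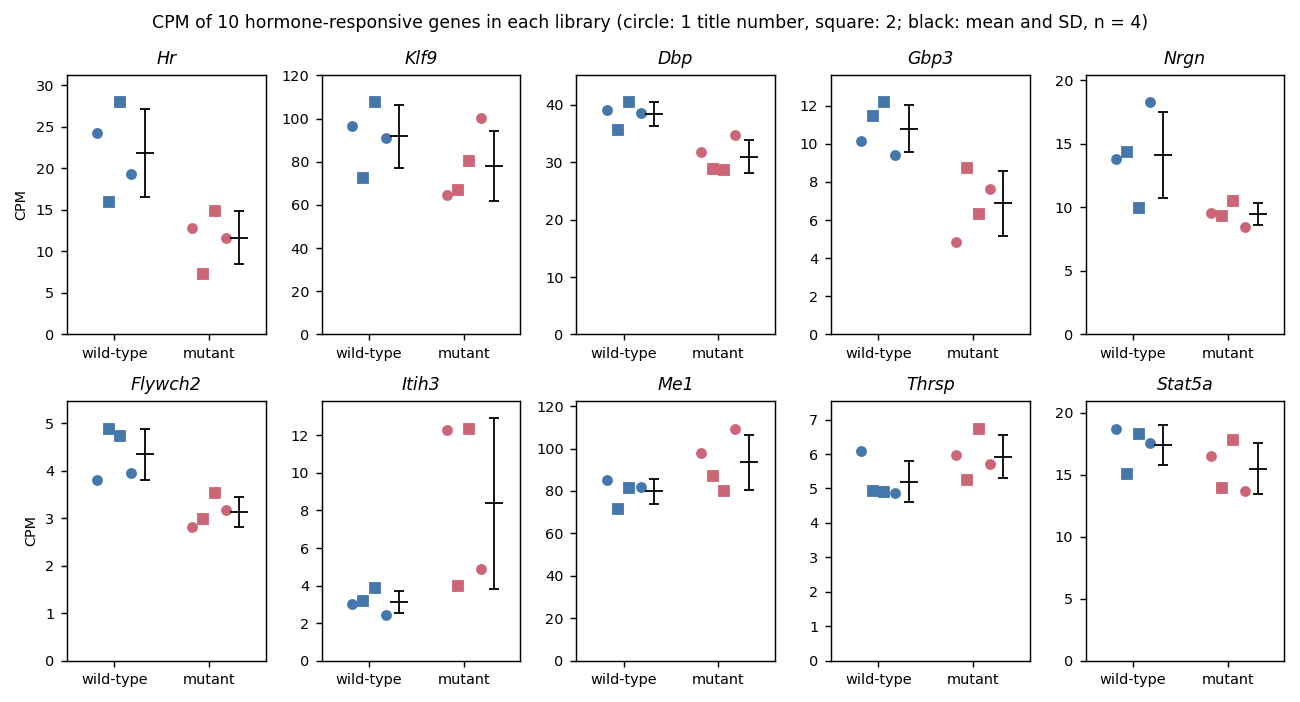
CPM of each of the 10 genes in 4 wild-type and 4 mutant libraries. Circles are libraries with 1 number in the title, squares those with 2, and the black marks give the mean and SD. Hr, Dbp, Gbp3 and Flywch2 separate downwards and Itih3 upwards, with mutant replicates 1 and 3 of Itih3 at 12.3 and 12.4 CPM.

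Per exonic length the 10 genes spanned more than an order of magnitude in wild-type libraries. Me1 led at 20.8 ± 1.54 RPKM (CPM per kilobase of exon, SD, n = 4), followed by Klf9 at 19.1 ± 3.05 RPKM. The ranges of these 2 genes over the wild-type libraries overlapped. Dbp followed at 12.8 ± 0.689 RPKM and Nrgn at 9.71 ± 2.34 RPKM, again with overlapping ranges. Flywch2 stood at 4.36 ± 0.544, Gbp3 at 3.31 ± 0.381 and Hr at 3.16 ± 0.765 RPKM, and the range of Hr overlapped those of Flywch2, Gbp3, Stat5a and Thrsp. Stat5a at 2.44 ± 0.228 and Thrsp at 2.37 ± 0.271 RPKM could not be ordered by their ranges either. Itih3 was lowest at 0.860 ± 0.160 RPKM, and its mutant mean was 2.30 ± 1.26 RPKM.

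**Figure D2:**
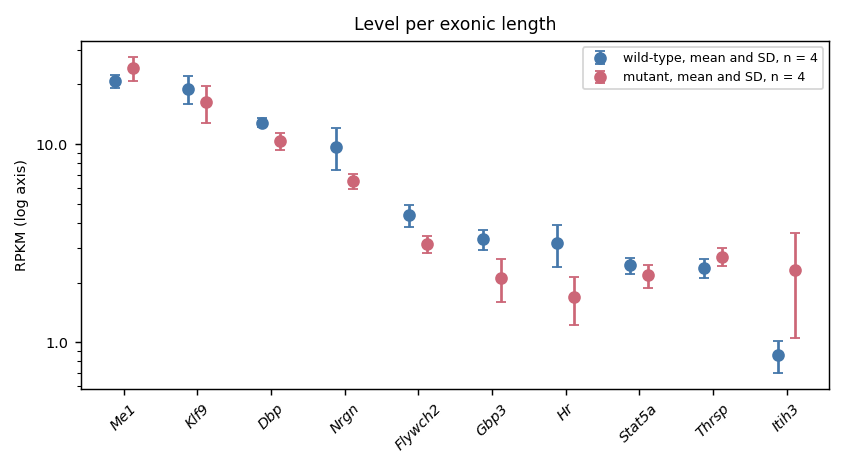
RPKM of the 10 genes on a log axis, mean and SD of 4 libraries per genotype, ordered by the wild-type mean. Me1 and Klf9 are highest and Itih3 is lowest in wild-type libraries, where it stands at 0.860 RPKM against 2.30 in mutant libraries.

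Among the nuclear regulators, Hr had the widest gap. It encodes the corepressor Hairless, which binds thyroid hormone receptors and is itself a classical direct target of the hormone (chr14:70552212-70573548, plus strand, GRCm38). Wild-type replicates 1 to 4 held 24.2, 15.96, 27.9 and 19.3 CPM and mutant replicates 1 to 4 held 12.9, 7.31, 14.8 and 11.6 CPM. The groups did not overlap, but the highest mutant library (replicate 3) lay just below the lowest wild-type library (replicate 2). The log2 difference (mutant minus wild-type) was -0.91 (SE 0.24). With neighbouring title numbers as a replicate block, an assumed pairing, the difference was -0.92 (SE 0.089). Hr was then the 1 gene of the 10 to be called, beside 0.136% of all tested genes. Nothing is read from that call, because the genes were chosen with this contrast in view and 1 of the 4 assumed pairs had a correlation of deviations of -0.038.

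The libraries of each genotype differed in Hr in the same order as in other genes. Over 8 libraries and 12554 genes compared, those most like Hr in their deviations from the genotype means were Kdelr3, an endoplasmic reticulum retention receptor (r = 0.996), Morc4 (0.990) and Pcolce2, an enhancer of procollagen processing (0.989). These are the highest of many correlations over few libraries that share depth and dissection, so they describe and carry no test. In both genotypes replicates 1 and 3 were the high libraries and replicate 2 was the low library for Hr, Kdelr3 and Pcolce2. Between genotypes they parted. Kdelr3 averaged 36.4 ± 10.5 CPM over the wild-types and 43.0 ± 13.6 CPM over the mutants (SD, n = 4 each), and Pcolce2 25.8 ± 8.63 and 40.5 ± 15.995 CPM, while Hr went the other way. For each 100 CPM of Kdelr3 the wild-type libraries held 56.7, 66.2, 59.1 and 60.9 CPM of Hr and the mutant libraries 26.5, 29.1, 26.0 and 28.2 CPM. The spread within a genotype was narrow here because Kdelr3 had been picked for following Hr. That pick did not use the distance between the genotypes. Hr itself, however, is in a set chosen with that distance in view, so the separation carries no test. Of the 8 mucosal markers, which were lower in mutant libraries, 0 had a positive r with Hr within genotypes (median r = -0.39). Their part in the difference of Hr was not tested.

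**Figure D3:**
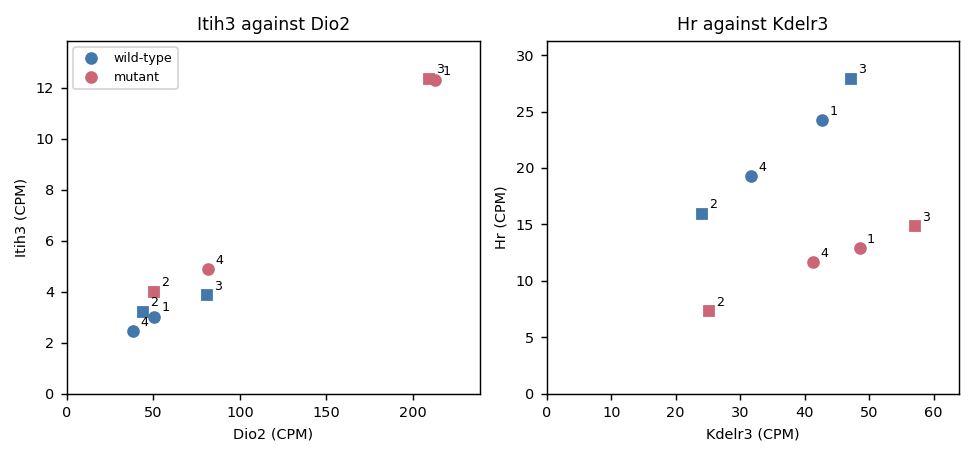
Itih3 against Dio2 (left) and Hr against Kdelr3 (right), in CPM, 1 point per library with its replicate number. Circles are libraries with 1 title number and squares those with 2. On the left mutant replicates 1 and 3 lie far out, at 213 and 209 CPM of Dio2. Mutant replicates 2 and 4, at 50.3 and 81.4 CPM of Dio2, lie near the wild-type libraries. On the right each genotype forms a line of its own.

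Klf9, a Krüppel-like transcription factor induced by both thyroid hormone and glucocorticoids (chr19:23141226-23168134, plus strand), differed little. From replicate 1 to 4 the wild-type libraries held 96.5, 72.4, 108 and 90.8 CPM and the mutant libraries 64.7, 67.0, 80.4 and 100.4 CPM. The groups overlapped, with mutant replicate 4 above 3 of the wild-type libraries, and the log2 difference was -0.23 (SE 0.17). It was -0.15 without wild-type replicate 3 or without mutant replicate 1, and -0.38 without mutant replicate 4. With the choroid plexus list as a covariate it was -0.36. Of 8 genes induced by glucocorticoids, such as Fkbp5, Tsc22d3 and Sgk1, 5 were higher and 3 lower in mutant libraries. None was called, 0 had an unadjusted p under 0.05, and their median log2 difference was 0.058. Within genotypes 5 of the 8 had a positive r with Klf9 (median 0.501, from -0.557 to 0.828). Their part in the difference of Klf9 was not tested. Klf9 was closest to Aebp2 (r = 0.958), Foxk2 (0.955) and Zfp74 (0.949) within genotypes.

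Dbp encodes a transcription factor of the circadian output, with a strong daily rhythm, and is also raised by the hormone (chr7:45705088-45710203, plus strand). It varied least among the 10 genes in wild-type libraries, at 39.1, 35.5, 40.4 and 38.6 CPM. Mutant replicates 1 to 4 held 31.7, 28.7, 28.6 and 34.8 CPM, below every wild-type library, for a log2 difference of -0.31 (SE 0.087). Because Dbp is rhythmic, clock genes were read beside it. All 9 genes listed as peaking near Dbp in the daily cycle were slightly higher in the mutants, with log2 differences from 0.034 for Nr1d1 to 0.29 for Per1 and a median of 0.13. Among them were the related factors Tef (0.16, SE 0.12) and Hlf (0.16, SE 0.12). Genes of the opposite phase had a median of 0.099 (5 tested, 4 of them higher), and 0 of these 14 clock genes were called or had an unadjusted p under 0.05. Within genotypes Dbp did not follow its phase: 3 of the 9 had a positive r with it (median -0.2). Of the 5 in opposite phase 3 did (median 0.415). The part of the daily cycle in the difference of Dbp was not tested. Nr1d1 overlaps Thra on the other strand, which leaves its counts uncertain.

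A second value bears on Dbp directly. Exons of Sphk2, a sphingosine kinase gene on the opposite strand, cover 539 bases or 18.01% of the exonic length of Dbp, and no label says whether the counting used strand. Sphk2 averaged 38.2 ± 2.61 CPM over the wild-types and 32.3 ± 3.83 CPM over the mutants (SD, n = 4 each), a log2 difference of -0.24 (SE 0.1). Reads of the 2 genes may not be fully separated, and how much of the difference of Dbp this makes was not tested.

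Stat5a, a transcription factor activated by growth hormone, prolactin and cytokines (chr11:100859351-100885169, plus strand), showed overlapping groups. Wild-type replicates 1 to 4 held 18.7, 15.1, 18.3 and 17.6 CPM and mutant replicates 1 to 4 held 16.6, 13.9, 17.8 and 13.7 CPM (log2 difference -0.17, SE 0.12). With the choroid plexus list as a covariate the difference was -0.10. The related Stat5b stood at -0.099 (SE 0.078), and all 6 other Stat genes had values below 0, from -0.16 to -0.022. Stat5a shares 72 exonic bases (1.01%) with Stat3 on the opposite strand. Of 9 genes induced through STAT5, 5 were higher and 4 lower, and 0 were called. The kinase gene Pim1 was the 1 of them without overlap, beside 2.69% of all genes. It stood at 22.2 ± 5.42 CPM against 13.0 ± 2.68 CPM in the mutants (SD, n = 4 each, log2 difference -0.77, SE 0.21, edgeR adjusted p = 0.869). Next by p came the cell cycle gene Ccnd1, with a log2 difference of 0.37 (SE 0.17, edgeR adjusted p = 0.924), and the feedback inhibitor Cish, with -0.30 (SE 0.17, edgeR adjusted p = 0.943). Each of the alternative RefSeq promoters of Stat5a holds 1 AGGTCA half-site, at 46 and 44 bases before the start, a 6-letter word found on either strand in 16.3% of promoters.

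The metabolic genes Me1 and Thrsp belong to the program by which the hormone drives fat synthesis in liver. Me1 encodes cytosolic malic enzyme, which supplies NADPH (chr9:86581371-86695953, minus strand), and its promoter in the rat is known for an imperfect response element. RefSeq promoters (GRCm38.p6, 250 bases before to 50 after a start) were matched for 9 of the 10 genes, 12 promoters in all. The promoters of Me1 and Gbp3 are shown because they were the only 2 of the 12 with a stretch that departs from the 12 fixed letters of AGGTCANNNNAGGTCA, read on both strands, at no more than 3 of them. Capitals mark that stretch.
Me1 chr9:86695865-86696164, minus strand: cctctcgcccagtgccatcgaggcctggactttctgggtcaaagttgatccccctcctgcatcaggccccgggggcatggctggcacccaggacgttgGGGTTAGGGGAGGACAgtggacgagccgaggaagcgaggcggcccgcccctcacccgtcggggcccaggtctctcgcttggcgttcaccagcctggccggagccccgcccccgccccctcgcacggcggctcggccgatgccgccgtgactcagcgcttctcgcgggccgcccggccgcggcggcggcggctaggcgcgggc
Gbp3 chr3:142559794-142560093, plus strand: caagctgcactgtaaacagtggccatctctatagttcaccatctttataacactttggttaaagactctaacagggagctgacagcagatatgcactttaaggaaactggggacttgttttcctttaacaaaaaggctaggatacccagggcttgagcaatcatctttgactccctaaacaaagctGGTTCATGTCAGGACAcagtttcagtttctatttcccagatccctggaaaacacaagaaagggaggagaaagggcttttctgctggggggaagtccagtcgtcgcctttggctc
The stretch GGGTTAGGGGAGGACA of Me1 begins 152 bases before the start and GGTTCATGTCAGGACA of Gbp3 begins 64 bases before it, each with 3 departures. A stretch this close was found in 21.9% of 32851 promoters and an exact DR4 in 0.0152%. A match describes these letters and does not show a site in use. The word GAAA, repeated after any 2 bases, is the core of an interferon response element. This pair occurs on either strand in 3.44% of promoters and overlaps neither stretch. The Gbp3 promoter holds it on the minus strand, as TTTCAGTTTC and TTTCTATTTC, starting 45 and 39 bases before the start.

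For Me1 the wild-type libraries held 85.0, 71.3, 81.2 and 82.0 CPM, and the mutant libraries 98.0, 86.9, 79.8 and 109 CPM, from replicate 1 to 4. Mutant replicates 1, 2 and 4 lay above every wild-type library and replicate 3 did not (log2 difference 0.23, SE 0.11). The difference was 0.14 without mutant replicate 4 and also with the choroid plexus list as a covariate. Thrsp, the hormone-inducible nuclear protein Spot 14 of fat-forming tissues (chr7:97412938-97417730, minus strand), was measured at 6.08, 4.94, 4.89 and 4.88 CPM in the wild-types and at 5.97, 5.24, 6.74 and 5.72 CPM in the mutants. Here wild-type replicate 1 reached into the mutant range (log2 difference 0.19, SE 0.14). The difference was 0.28 without that library and 0.12 without mutant replicate 3. Both values lay above 0, with groups that overlapped. Hr, Klf9 and Dbp, which are known targets of the hormone too, had values below 0.

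Of 11 lipogenic genes 9 were higher and 2 lower, with a median log2 difference of 0.057 and a range from -0.35 to 0.21. The elongase gene Elovl6 stood at 0.21 (SE 0.14), Mlxipl, which encodes the glucose-responsive factor ChREBP, at -0.35 (SE 0.25) and the desaturase gene Scd2 at 0.17 (SE 0.13). In edgeR 0 of the 11 were called and 0 had an unadjusted p under 0.05. Of the adipocyte genes 5 of 6 tested members were lower, with Plin1, Cidec and Retn near 0 and Lep at 0 in the libraries, and 0 were called while 2, Adipoq and Lpl, had an unadjusted p under 0.05 (5.30% of all genes did). Adipoq, the adipocyte hormone adiponectin, stood at 5.51 ± 2.81 and 2.18 ± 1.27 CPM (SD, n = 4 each, log2 difference -1.33, SE 0.54, edgeR adjusted p = 0.924). The summed adipocyte list lay between 78.0 and 132 CPM in the wild-types and between 61.6 and 101 CPM in the mutants. Within genotypes Me1 followed 10 of the 11 lipogenic genes with a positive r (median 0.62), and of the other 9 genes described here it was closest to Dbp (r = 0.944, 8 libraries).

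Gbp3, an interferon-inducible GTPase of the guanylate-binding protein family (chr3:142560026-142573209, plus strand), had 10.1, 11.4, 12.2 and 9.43 CPM in the wild-type libraries. Mutant replicates 1 to 4 held 4.83, 8.74, 6.30 and 7.62 CPM, all below the wild-type libraries (log2 difference -0.65, SE 0.19). Its relatives are close in sequence, so reads may be split among them. Gbp2 was also without overlap, at 9.55 ± 1.56 and 6.90 ± 1.02 CPM (SD, n = 4 each, log2 difference -0.47, SE 0.16, edgeR adjusted p = 0.907), and Gbp5 stood at -0.39 (SE 0.21). The immunoproteasome gene Psmb8 and the interferon regulatory factor gene Irf1 stood at -0.49 (SE 0.24) and -0.32 (SE 0.16). Gbp7 stood at -0.064, and Gbp4 (0.044), Gbp9 (0.074), Gbp8 (0.10) and Gbp6 (0.36) had values above 0, as did Gbp10 (0.42) and Gbp11 (0.33), which are not in the list. Over 18 interferon-inducible genes 14 were lower and 4 higher, and the median log2 difference was -0.29. In edgeR 0 were called (0.0421% of all genes were). The 1 with an unadjusted p under 0.05 (5.30% of all genes) was Gbp2, also the 1 without overlap (2.69% of all genes). Within genotypes all 18 followed Gbp3 with a positive r (median 0.59), highest for Gbp7 (0.974). Gbp3 thus stood lower in mutants than Gbp7, the relative that it followed from library to library. A test of that difference was not made.

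Nrgn encodes neurogranin, a calmodulin-binding protein of neurons and a known hormone target in the forebrain (chr9:37544492-37552904, minus strand). Wild-type replicates 1 to 4 held 13.8, 14.4, 9.94 and 18.3 CPM and mutant replicates 1 to 4 held 9.57, 9.29, 10.5 and 8.42 CPM (log2 difference -0.58, SE 0.18). Wild-type replicate 3 lay inside the mutant range, and without it the difference was -0.71. Without wild-type replicate 4, the highest library, it was -0.43. The gap was -0.83 among libraries with 1 title number and -0.29 among those with 2. Values of neuronal genes lay closer to 0. The 8 general neuronal genes had log2 differences from -0.079 to 0.16 (median 0.043), and those of forebrain neurons ranged from -0.075 to 0.27 (median 0.049) over 5 tested members, with Neurod6, Tbr1 and Neurod2 near 0. None of these 13 was called or had an unadjusted p under 0.05.

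Flywch2 (chr17:23776916-23786081, minus strand), a small gene with a FLYWCH zinc finger, was measured at 3.81, 4.88, 4.73 and 3.96 CPM in the wild-types and at 2.81, 2.99, 3.54 and 3.18 CPM in the mutants. The groups did not overlap (log2 difference -0.47, SE 0.15). These values rest on 60 to 93 counts per library, the fewest of the genes that were lower. Its closest gene within genotypes was D2hgdh (r = 0.973).

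Itih3 showed the widest difference and the widest spread. The protein is one of the inter-alpha-trypsin inhibitor heavy chains, which plasma delivers and which become linked to hyaluronan (chr14:30908572-30923760, minus strand). Wild-type replicates 1 to 4 held 3.02, 3.20, 3.85 and 2.44 CPM, and mutant replicates 1 to 4 held 12.3, 4.0, 12.4 and 4.87 CPM. All mutant libraries were above all wild-type libraries, but mutant replicates 2 and 4 lay close to them and replicates 1 and 3 were at 393% and 395% of the wild-type mean. The log2 difference was 1.42 (SE 0.39), and 1.62 and 1.19 among libraries with 1 and 2 title numbers. Each title form holds 1 high and 1 low mutant library, so the split did not follow title form. Of the other genes of this family and of hyaluronan, 5 of 7 tested were higher and 2 lower, with a median log2 difference of 0.15. Tnfaip6, whose product transfers heavy chains to hyaluronan, stood at 0.29 (SE 0.20), Itih5 at 0.21 (SE 0.19) and Itih2 at -0.17 (SE 0.18). Within genotypes 5 of the 7 had a positive r with Itih3 (median 0.22, highest 0.503), and 0 of the 7 tested in that list were called or had an unadjusted p under 0.05.

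Dio2, the deiodinase that makes active hormone inside cells, was among the 3 genes most like Itih3 within genotypes (r = 0.970, after Mmp11 at 0.979 and Bmp4 at 0.976). From replicate 1 to 4 the wild-type libraries held 50.4, 43.8, 81.0 and 38.1 CPM of Dio2 and the mutant libraries 213, 50.3, 209 and 81.4 CPM, high in the same 2 mutant libraries. Per 100 CPM of Dio2 there were 6.11 ± 1.06 CPM of Itih3 in the wild-types and 6.41 ± 1.04 CPM in the mutants (SD, n = 4 each). Per 100 CPM of Mmp11, a matrix metalloproteinase, the values were 27.4 ± 2.80 and 62.1 ± 10.2 CPM, and per 100 CPM of Bmp4, a bone morphogenetic protein, 14.0 ± 1.68 and 33.3 ± 13.1 CPM. Of these 3 genes Dio2 was the one that kept its proportion to Itih3 across genotypes, and none of these proportions was tested. Choroid plexus markers summed to 46.3 and 37.5 CPM in mutant replicates 1 and 3, against 41.2 to 59.5 CPM in wild-type libraries. Among them Kcnj13 was at 8.78 CPM in mutant replicate 1, against 5.06 to 7.91 CPM in the wild-types. Within genotypes 1 of the 7 markers, Kcnj13 (0.014), had a positive r with Itih3 (median -0.559). Mutant replicate 4, a mutant library with low Itih3, summed to 2119.9 CPM of these markers. That 1 library weighs heavily on these r, and none was computed without it. The part of the choroid plexus markers in the difference of Itih3 was not tested.

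A further 45 hormone-responsive genes from nervous system, metabolism and muscle, none of them among the 10, were read in the same fit. Of these 38 were tested, 22 were higher and 16 lower, and the median log2 difference was 0.024, beside -0.0061 over all genes. In edgeR 0 were called (0.0421% of all genes were), 1 had an unadjusted p under 0.05 (5.30% of all genes did), and DESeq2 called 0. The 1 gene was Bcl3, a cofactor of NF-κB that the hormone induces in liver. It stood at 6.26 ± 0.863 and 3.91 ± 0.827 CPM (SD, n = 4 each, log2 difference -0.68, SE 0.19, edgeR adjusted p = 0.880). Bcl3 was also the 1 of the 38 without overlap, beside 2.69% of all genes, so nothing is read from it. Of the 20 nervous system genes 12 were higher and 8 lower. Mbp, which encodes myelin basic protein, stood at 0.42 (SE 0.23), the sulfotransferase gene Sult1a1 at 0.30 (SE 0.16), the peroxisomal transporter gene Abcd2 at -0.20 (SE 0.11) and the kinase gene Camk4 at 0.33 (SE 0.19). The median of the 8 tested muscle genes was -0.056 and that of the 10 tested metabolic genes 0.012. Dio1, a direct target in liver, was near 0 and not tested.

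**Figure D4:**
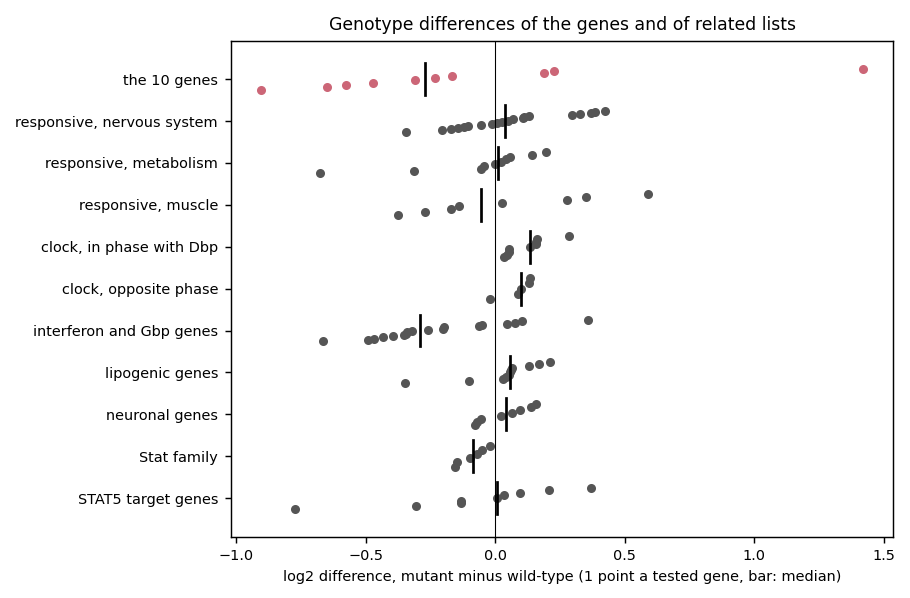
Log2 differences, mutant minus wild-type, of the tested members of each list, 1 point per gene, with the median as a bar. The 10 genes have a median of -0.27, the interferon and Gbp genes -0.29, and the further hormone-responsive lists lie around 0.

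The title forms did not enter the choice of the 10 genes directly, but the comparison is not independent of it. Choice by a genotype difference can favour genes with little spread within a genotype, and the title forms are part of that spread. The counts for title form are therefore a description. With genotype in the model, 0 of the 10 differed between libraries with 2 title numbers and those with 1 at an adjusted p under 0.05 in edgeR or DESeq2. Over all tested genes 9.39% did in edgeR, and 2952 of 21392 did in DESeq2. The number behind the edgeR share, 2008 genes, was 1640 without wild-type replicate 2 and between 254 (without mutant replicate 1) and 971 without any other 1 library. Me1 was the 1 gene with an unadjusted p under 0.05 (26.9% of all genes), lower in libraries with 2 numbers (79.8 against 93.6 CPM, log2 difference -0.22, SE 0.074, edgeR adjusted p = 0.103). The genotype differences of all 10 genes had the same sign within each title form. For Hr, Dbp, Gbp3, Flywch2 and Itih3, whose groups did not overlap, this was bound to be so. The 10 genes were also chosen with the genotype contrast in view, so nothing is read from this agreement. A test of whether the genotype difference depended on title form called 0 of the 10 in edgeR, against 0.0795% of all genes. An unadjusted p under 0.05 was found for 0 of the 10, against 1.27% of all genes.

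**Figure D5:**
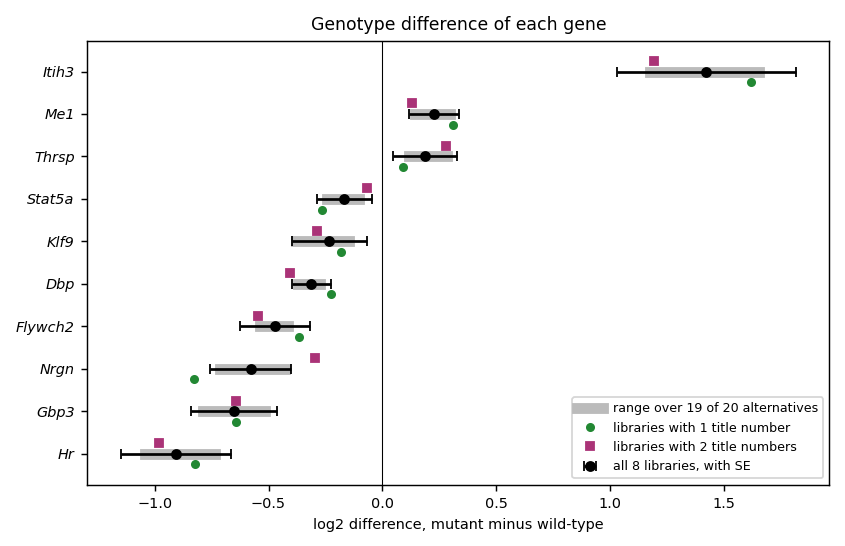
Log2 difference of each gene, mutant minus wild-type. Black points are the fit to 8 libraries with its SE, green circles and purple squares are libraries with 1 and 2 title numbers, and grey bars span 19 of the 20 alternatives (the mucosal covariate left out). No grey bar crosses 0, and Nrgn has the widest gap between title forms below 0 (-0.83 and -0.29).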

How the data were processed

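Each of the 8 deposited files holds whole-number counts per gene symbol, not normalized by the authors. FastQC, STAR, HTSeq and mm10 are named without versions, and the library kit carries molecular identifiers, per the labels' protocols and the submitters' processing notes. No annotation, strand setting or removal of duplicates is given in the sources used here, so duplicates may remain in the counts.

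Counts were fitted with edgeR 4.0.16 in R 4.3.3 (TMM, default expression filter, robust quasi-likelihood test, genotype as the only term), with Benjamini-Hochberg adjustment over 21392 genes. A standard error is the log2 difference divided by the square root of F. The labels give no litters or animals per library, and p-values cover only the spread between these samples, which may be technical. On simulated counts with 4 against 4 libraries and 20960 genes, 63% of genes changed by 1 on the log2 scale and 98% of those changed by 2 were called for genotype. Changes were given to 100 genes per size, all of at least 5 CPM, with the spread set by the trend over mean level. The shares therefore do not cover a gene as low as Flywch2 or one as variable as Itih3 in the mutants. Benjamini-Hochberg adjustment is also less strict where more genes are changed, and the fit to the real libraries called only 9 of 21392 genes. The shares are thus likely too high for these libraries. They give no estimate of how often a change of that size in Hr or another gene would be called here. RPKM used the union of GENCODE M21 exons. Likeness is Pearson r of log2 CPM (prior count 2) deviations from genotype means, for genes of at least 5 CPM with an established symbol, and the 3 highest per gene were kept.

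The 10 genes and the lists were chosen with earlier results of these data known. Named genes are the 10, up to 4 tested genes of a list by p, and like genes. Sphk2, Nr1d1, single relatives in the Gbp and Stat lists, and the ratios to like genes were chosen after values were seen.

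Alternatives were 2 other normalizations, no filter, a minimum of 1 CPM in 4 libraries, DESeq2 1.42.0, no robust estimation, each library left out, genes with counts of 0 beside 10 or more left out, haemoglobin left out, and title form, neighbouring title numbers, mucosal or choroid plexus lists as terms.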

Additional observations from a re-analysis of the deposited data

Results flagged for a closer look

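Thrsp in wild-type libraries had 1 library far from the others. Replicate 1 held 6.08 CPM and the other 3 held 4.88 to 4.94 CPM, so the gap to the nearest library was 0.950 of the whole range, above Dixon's 95% critical value for 4 libraries. Such a gap arises by chance in about 1 of 20 groups, and 20 groups (10 genes in each genotype) were looked at. Without wild-type replicate 1 the log2 difference of Thrsp was 0.28.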

How the results depend on the processing

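The 10 genes kept the sign of their difference, and stayed within the spread between replicates, in all 190 pairs of a gene with 1 of 19 alternatives. These counts are a description, because many of the pairs could hardly have come out otherwise. Where groups do not overlap, leaving out a library can hardly turn the sign. It also moves a mean by less than the spread between single libraries. The exception among the alternatives is the mucosal list as covariate, whose summed level had r = -0.985 with genotype. Genotype and mucosal content can therefore hardly be told apart. In that fit Hr was at -4.13 (SE 0.95), Gbp3 at 0.019 (SE 1.10), Nrgn at 0.57 (SE 1.04), Itih3 at -0.80 (SE 2.33), Me1 at -0.51 (SE 0.61) and Thrsp at -0.76 (SE 0.79), and 0 genes were called over all (1868 at an unadjusted p under 0.05). The number of genes called for genotype, 9, was 68 in DESeq2, 5 with title form as covariate and 29 with neighbouring title numbers as a replicate block. It ranged from 6 to 14 with single libraries left out (14 without mutant replicate 4). Under the block 1 of the 10 genes, Hr, was called. Deviations of the assumed pairs correlated at 0.128, 0.252, 0.187 and -0.038, so the pairing does not hold for every pair. The counts of called genes among the further 38, and among the 10 for the interaction, stayed at 0 in the alternatives run. For title form 2008 genes were called, 1230 with no filter and 254 to 1640 with single libraries left out, and 0 of the 10 throughout. At 60 to 93 counts per library for Flywch2 and 53 to 280 for Itih3, counting error adds to the spread of these genes.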
